A study of Rattus norvegicus with 22 samples.

Results

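Type A intercalated cells of the rat kidney were examined by their number, their proportion and their place on the map of nuclei across 5 treatment groups. They were taken as the nuclei that carry the label IC_A in the authors' deposited annotation of the single-nucleus RNA sequencing (snRNA-Seq). There were 7102 such nuclei among 310282, or 2.29% (95% exact binomial interval 2.24 to 2.34), which made IC_A the 9th most numerous of 16 annotated types. With 15341 principal cell (PC) nuclei and 6204 type B intercalated (IC_B) nuclei, they formed a collecting duct compartment of 28647 nuclei, of which IC_A made up 24.8%. The binomial interval covers counting error alone.

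The animals were Sprague-Dawley rats. Control rats had a sham operation, oil injections and tap water. Rats of the other 4 groups received deoxycorticosterone acetate (DOCA), a mineralocorticoid, at 50 mg/kg each week together with salt in the drinking water, after removal of 1 kidney. The study describes this removal for the model as a whole, but the group list in its methods names it for the DOCA, finerenone and spironolactone groups and not for amiloride. By gavage they were given vehicle (the DOCA group), finerenone at 10 mg/kg per day, spironolactone at 50 mg/kg per day or amiloride at 20 mg/kg per day. Kidneys were collected after 3 weeks (3 samples, from the DOCA, finerenone and spironolactone groups) or 6 weeks (19 samples). Nephrectomy, DOCA and salt cannot be told apart in the comparison of DOCA with control.

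Type A intercalated cells secrete acid into the urine. They pump protons across the apical membrane with a V-type ATPase, of which Atp6v0d2 encodes a subunit, and return bicarbonate to the blood through the anion exchanger AE1, encoded by Slc4a1. Type B intercalated cells do the opposite and secrete bicarbonate through pendrin (Slc26a4), while the neighbouring principal cells reabsorb sodium through the epithelial sodium channel (ENaC) under control of the mineralocorticoid receptor. Finerenone is a nonsteroidal and spironolactone a steroidal antagonist of that receptor, and amiloride blocks ENaC.

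The annotation named 22 libraries, with 5 each from control, DOCA, finerenone and spironolactone and 2 from amiloride. Library size ran from 759 nuclei (spironolactone library RK4.1) to 48403 nuclei (finerenone library RK8.2.New), and the number of IC_A nuclei from 25 in RK4.1 to 650 in the control library RK10.3.Old. The names separated the libraries into 2 sets, 11 with the word Old or New in the name (tagged) and 11 without (untagged), and the barcode suffix followed this division in 22 of 22 libraries. The median library held 6564 nuclei in the untagged set and 15167 in the tagged set. Both amiloride libraries were tagged, as were 3 finerenone libraries and 2 in each of the other groups. The names of 5 tagged libraries, 1 in each treatment group, also end in MO. These are called Multiome libraries here, after the kit that reads RNA and open chromatin from the same nucleus, which the study used for 5 samples. The count is the same, but that MO stands for this kit was inferred and is not stated in the sources used here.

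The 22 names used 16 RK numbers. Of these numbers, 5 recurred in 11 libraries, and 4 of the 5 recurred under different treatments, such as RK7.1 (DOCA) and RK7.1.New (finerenone). In 2 cases a number recurred within a treatment, RK12.2 and RK12.2.Old.MO in control and RK6.1 and RK6.1.New in spironolactone. Whether these pairs came from the same animal is not given in the sources used here, so p-values over libraries measure the spread between libraries, part of which may be technical. Of 300310 distinct cell barcodes, 9782 (3.26%) occurred in more than 1 library, and none of the 231 library pairs shared more than 3.12% of the barcodes of its smaller member. Only 7 barcodes were IC_A in both libraries of a pair. A barcode identifies a nucleus within a library and not an animal, so this overlap does not bear on which libraries came from the same animal.

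On the authors' UMAP, a 2-dimensional map on which nuclei with similar expression lie close together, the IC_A label marked a compact population. Of the 30 nearest neighbours of an IC_A nucleus, 98.3% on average were also IC_A, and the lowest library mean was 95.5%. A single island held 6966 of the 7102 nuclei (98.1%). The closest type by the distance between median positions was IC_B, at 5.52 UMAP units, followed by PC at 6.72 and endothelial cells at 8.22. Distance on such a map has no unit and is a description of layout. The labels were drawn from the same integrated data as the map, so this closeness describes the annotation and is no independent check of it. The 2 tables used here give no expression values, so Slc4a1 and Atp6v0d2, the markers of the type, were not analysed here, and the cell type is the authors' annotation.

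**Figure D1:**
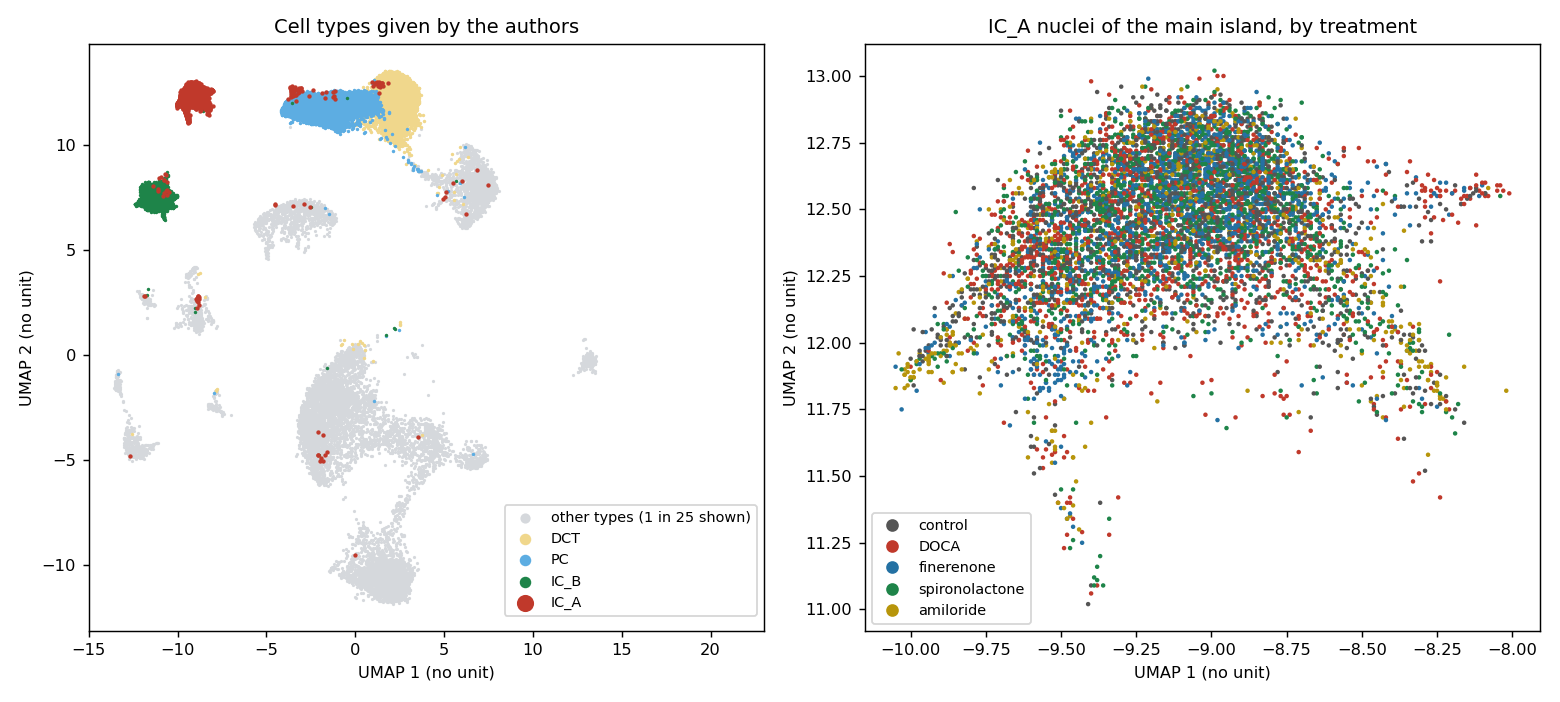
UMAP positions as deposited, without unit. Left, IC_A, IC_B, PC and distal convoluted tubule (DCT) nuclei in full and 1 in 25 of all other nuclei. Right, the 6966 IC_A nuclei of the main island coloured by treatment, in which every treatment occupies the body of the island.

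Outside the island lay 136 IC_A nuclei (1.91%). Among their neighbours, the most common type was DCT for 28 nuclei, PC for 26, IC_A for 25, IC_B for 16 and macrophage (Mac) for 14. Hence most of the stray nuclei sat within or beside other tubule types. The share outside varied between libraries, from none in 6 libraries to 5.75% in RK2.2.Old.MO, 4.52% in RK9.1.Old.MO, 4.27% in RK3.1 and 4.12% in RK11.2.New. Pooled Multiome libraries had 3.14% outside (73 of 2324) and the others 1.32% (63 of 4778), but the Multiome libraries RK12.2.Old.MO (1.28%) and RK12.2.New.MO (1.18%) were below that of the others. Counting only the nuclei of the island gave the same finerenone difference to the printed digits (-1.26 percentage points).

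IC_A made up a lower share of the nuclei recovered from finerenone-treated rats than from DOCA rats, at a mean of 1.76% against 3.03%, a ratio of 0.583, a difference that did not pass after adjustment. The 5 DOCA libraries had 2.42%, 2.78%, 2.93%, 3.36% and 3.65% IC_A, and the 5 finerenone libraries 0.839%, 1.57%, 1.76%, 2.29% and 2.36%. The groups did not overlap, although the highest finerenone library and the lowest DOCA library were close. Each of the 5 finerenone libraries also lay below every control library. The means were 3.03 ± 0.483% (SD, n = 5) for DOCA and 1.76 ± 0.617% (SD, n = 5) for finerenone, a difference of -1.26 percentage points (95% interval -2.08 to -0.488). By the two-sided exact permutation test over libraries p was 0.00794, the smallest this design allows, and after Benjamini-Hochberg adjustment over the 12 comparisons of IC_A shares it was 0.0952 and missed the threshold of 0.05. In the same exact test over all 16 types, 12.5% were called at an unadjusted p under 0.05. These were IC_A and the proliferating tubule cells (Prolif_Tubule), both lower, and neither passed after adjustment of the exact p-values over the 16 types (IC_A adjusted p = 0.127).

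The difference had the same sign in each set of libraries. The difference was -0.890 percentage points among untagged libraries (2.06% against 2.95%) and -1.58 among tagged libraries (1.57% against 3.14%). When labels were permuted only within the sets, the exact p was 0.02, the smallest possible there. In the Multiome libraries alone, 1 in each group, finerenone had 2.29% and DOCA 3.36%. Finerenone libraries were also larger, with 6564 to 48403 nuclei against 1774 to 15167 for DOCA. Without the libraries of over 30000 nuclei the difference was -0.891 percentage points (exact permutation p = 0.0357). That p is the smallest possible there, and was fixed in advance because the full groups did not overlap.

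A share of all nuclei also depends on how many other nuclei were recovered, and fewer IC_A cannot be told apart from more of other types. Proximal tubule nuclei (PCT, PST and iPT, the convoluted, straight and injured segments) made up 60.5% of finerenone and 53.2% of DOCA libraries (exact permutation p = 0.429). The finerenone library RK8.2.New, which had the lowest IC_A share, stood apart at 85.7%, while the other finerenone libraries ran from 46.3% to 61.1%. With proximal tubule nuclei left out of the total, IC_A made up 4.67 ± 0.900% (SD, n = 5) in finerenone and 6.50 ± 0.758% in DOCA, a difference of -1.83 percentage points (exact permutation p = 0.00794). The lower IC_A share was therefore also present among the remaining nuclei. Relative to the DOCA mean, the difference was smaller there than for the share of all nuclei.

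**Figure D2:**
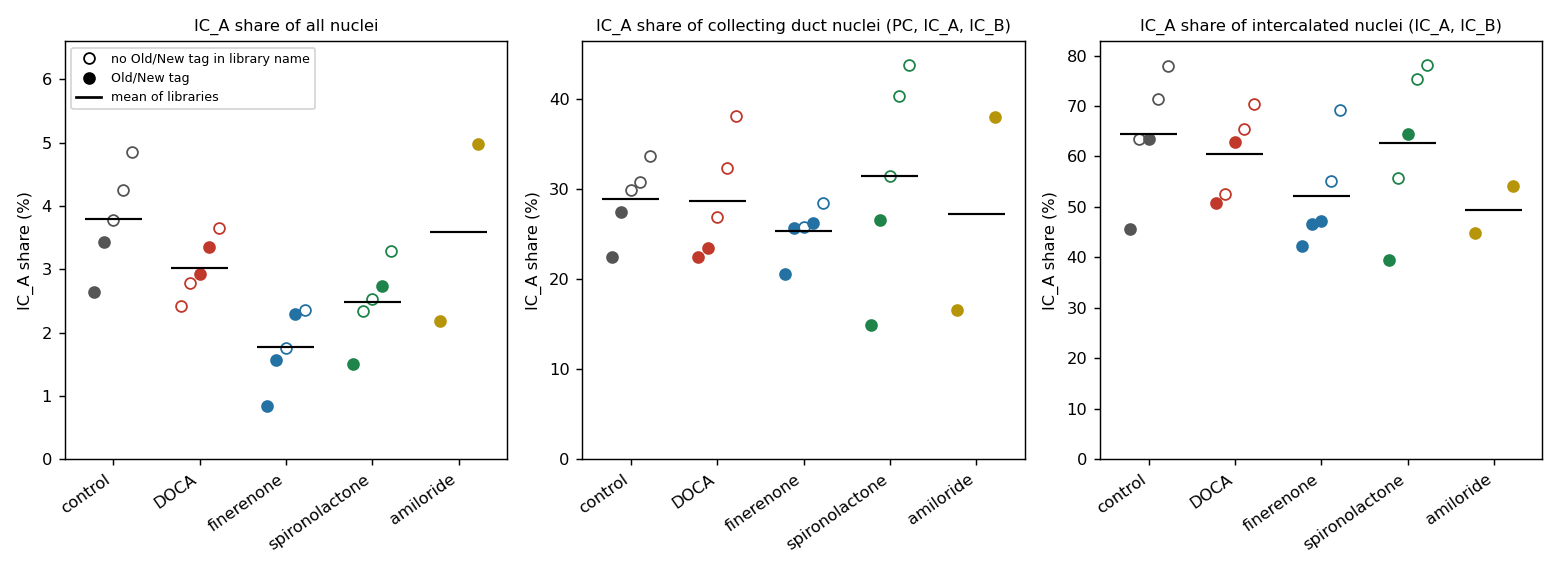
IC_A share in percent of all nuclei (left), of collecting duct nuclei (middle) and of intercalated nuclei (right), by treatment. Each point is a library, open for untagged and filled for tagged names, and the line is the mean; in the left panel all 5 finerenone points lie between 0.839 and 2.36, below the lowest DOCA point at 2.42.

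Rats given DOCA and salt had 3.03% IC_A nuclei against 3.79 ± 0.832% (SD, n = 5) in control, a difference that did not exceed the spread between libraries. The control libraries had 2.64%, 3.43%, 3.77%, 4.25% and 4.85%, and 3 of them lay above every DOCA library. The difference was -0.763 percentage points (95% interval -1.83 to 0.252, exact permutation p = 0.127, adjusted p = 0.635). In that comparison 31.2% of the 16 types were called and none of them was lower in DOCA. Leaving out the control library RK12.2.Old.MO, the lowest of its group, moved the difference to -1.05 percentage points (exact permutation p = 0.0317), and averaging it with RK12.2, which has the same number, gave -0.774 (exact permutation p = 0.0317). It was smaller without the libraries of under 2000 nuclei (-0.348, exact permutation p = 0.457) and with nuclei pooled over libraries (-0.217). The direction was not shared by the library sets, since the difference was -1.34 percentage points among untagged libraries and 0.104 among tagged ones.

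Spironolactone libraries had 1.51%, 2.34%, 2.53%, 2.73% and 3.29% IC_A nuclei. They overlapped the DOCA libraries, and 2 of 5 lay below all of them. The mean was 2.48 ± 0.652% (SD, n = 5), a difference from DOCA of -0.548 percentage points (95% interval -1.39 to 0.312, exact permutation p = 0.159, adjusted p = 0.635), in a comparison where 0.0% of the 16 types were called. Without the libraries of under 2000 nuclei, RK4.1 and the DOCA library RK7.1, the difference was -0.903 percentage points (exact permutation p = 0.0286). With nuclei pooled over libraries it was -1.04, and without RK6.1.New, the lowest spironolactone library, it was -0.305. Within the sets the difference was -0.230 percentage points (untagged) and -1.03 (tagged).

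The amiloride libraries had 2.18% and 4.98% IC_A nuclei, the second of which was the highest of all 22 libraries. Their mean of 3.58% was 0.555 percentage points above DOCA (exact permutation p = 0.571, with 0.0952 the smallest p that 2 libraries against 5 allow, and 0.0% of the 16 types called). Leaving out the higher library, RK12.2.New.MO, turned the difference to -0.847. The 3 drugs were given at different doses and each was set against the same 5 DOCA libraries, so the values stand side by side and the drugs were not compared with each other.

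The collecting duct as a whole made up 6.95% of all nuclei in finerenone against 11.2% in DOCA, a difference within the spread between libraries (difference -4.20 percentage points, 95% interval -8.65 to 0.80, exact permutation p = 0.0952). The PC share was 3.55% against 6.01% (exact permutation p = 0.0952) and the IC_B share 1.64% against 2.12% (exact permutation p = 0.365). The ratio of finerenone to DOCA was 0.583 for IC_A, 0.592 for PC and 0.772 for IC_B. Finerenone and DOCA libraries overlapped in both PC and IC_B. In IC_A they did not, by a narrow gap between 2.36% (highest finerenone) and 2.42% (lowest DOCA). Against control, PC did not overlap either, at 1.49% to 4.89% in finerenone and 5.99% to 8.38% in control, while IC_B did.

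**Figure D3:**
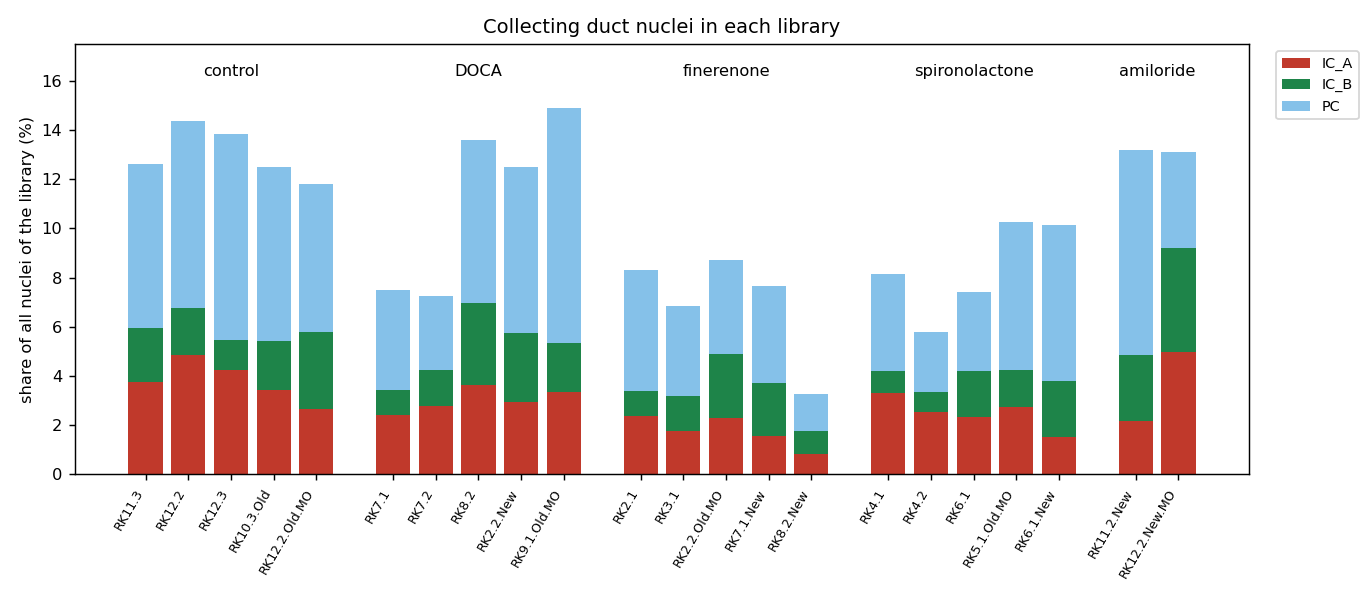
Share of all nuclei of each library, in percent, taken by IC_A (red), IC_B (green) and PC (blue), with libraries grouped by treatment. The finerenone bars reach 3.27 to 8.71 and the control bars 11.8 to 14.4.

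Within the collecting duct, the IC_A fraction showed no difference beyond the spread for any treatment. Control libraries had 22.4%, 27.5%, 29.9%, 30.7% and 33.7% of collecting duct nuclei as IC_A, and DOCA libraries 22.5%, 23.5%, 26.9%, 32.3% and 38.2%. The lowest libraries of both groups were close and the highest DOCA library lay above every control library, with means of 28.9 ± 4.23% and 28.7 ± 6.56% (SD, n = 5 each) and a difference of -0.190 percentage points (95% interval -7.62 to 8.66, exact permutation p = 0.968). Within the sets it was 1.00 (untagged) and -1.98 (tagged). The interval spans several points on either side, so a moderate shift was not detectable with these libraries.

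Among finerenone libraries the fraction was 20.5%, 25.7%, 25.7%, 26.3% and 28.4%, the narrowest range of the 4 groups with 5 libraries. The mean of 25.3 ± 2.91% (SD, n = 5) gave a difference from DOCA of -3.33 percentage points (95% interval -11.9 to 3.78, exact permutation p = 0.341). This difference was -1.12 with medians, -1.81 with pooled nuclei and -0.955 without the DOCA library RK7.2. Spironolactone had the widest range, with 14.9%, 26.6%, 31.5%, 40.3% and 43.8% and a mean of 31.4 ± 11.5% (SD, n = 5). It differed from DOCA by 2.74 percentage points (95% interval -11.8 to 16.9, exact permutation p = 0.651). The direction differed between the library sets for both drugs, at -5.36 (untagged) and 1.18 (tagged) for finerenone and 6.08 (untagged) and -2.26 (tagged) for spironolactone, and for spironolactone it also turned with pooled nuclei (-2.87). The amiloride libraries lay far apart at 16.5% and 38.0% (mean difference from DOCA -1.42 percentage points, exact permutation p = 0.762).

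**Figure D4:**
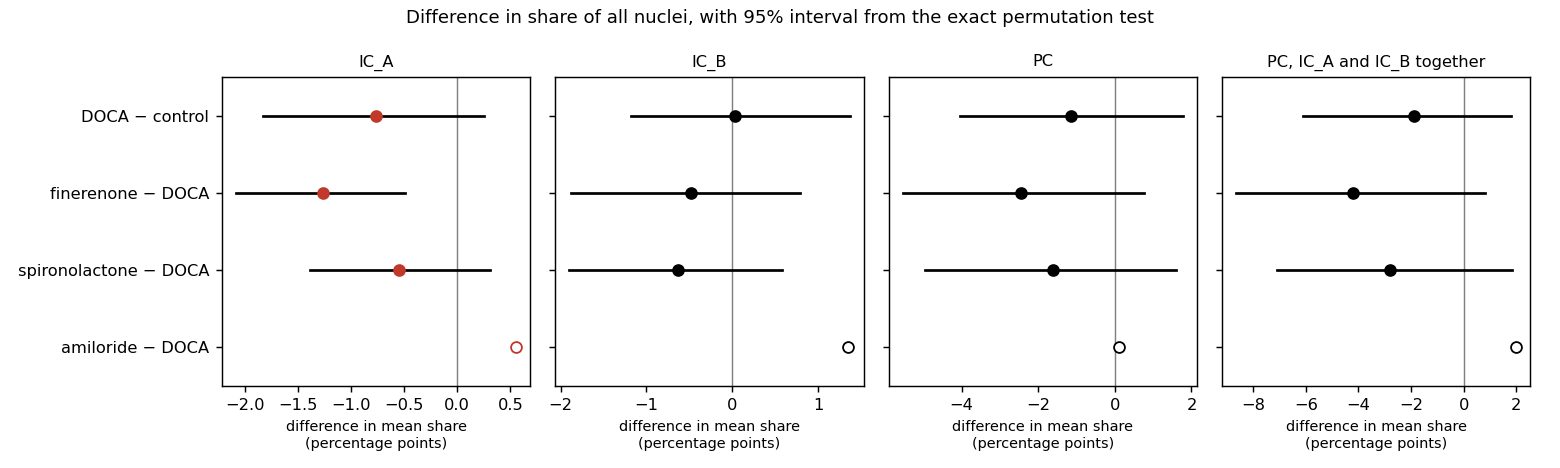
Differences in mean share of all nuclei, in percentage points, for IC_A, IC_B, PC and the 3 types together. Points are differences, bars are 95% intervals from the exact permutation test, and open points without a bar are amiloride, where 2 libraries allow no such interval; of the bars drawn, only that of IC_A for finerenone (-2.08 to -0.488) lies away from 0.

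The balance of acid-secreting and bicarbonate-secreting cells was examined as the IC_A share of intercalated nuclei, which was 53.4% over all nuclei. The means were 64.4 ± 12.1% in control, 60.4 ± 8.46% in DOCA, 52.1 ± 10.6% in finerenone and 62.6 ± 15.7% in spironolactone (SD, n = 5 each), and 44.8% and 54.1% in the amiloride libraries. DOCA differed from control by -3.95 percentage points (95% interval -19.0 to 12.2, exact permutation p = 0.563). Finerenone differed from DOCA by -8.32 (95% interval -23.1 to 6.24, exact permutation p = 0.214) and spironolactone by 2.21 (95% interval -16.5 to 19.9, exact permutation p = 0.802), while amiloride differed by -11.0 (exact permutation p = 0.286). None of the 4 differences passed. The DOCA difference was -8.13 among untagged and 2.32 among tagged libraries, and the spironolactone difference 6.95 and -4.90. Leaving out the finerenone library RK2.1, the highest of its group at 69.2%, moved the finerenone difference to -12.6 (exact permutation p = 0.0476), and leaving out the libraries of over 30000 nuclei to -3.40 (exact permutation p = 0.679). With medians it was -15.7 (exact permutation p = 0.119). The spironolactone difference turned to -4.33 with pooled nuclei and changed sign in 3 of 10 runs with a single library left out.

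The same balance moved with the set of libraries. IC_A made up 52.5% to 78.1% of intercalated nuclei in the 11 untagged libraries (mean 66.8%, median 69.2%) and 39.5% to 64.4% in the 11 tagged ones (mean 51.0%, median 47.2%). IC_A outnumbered IC_B in 11 of 11 untagged libraries and in 5 of 11 tagged libraries. Against all nuclei, the untagged and tagged means were 3.09% and 2.59% for IC_A and 1.56% and 2.40% for IC_B. Of the collecting duct, IC_A made up 32.9% and 24.0%, and in control, DOCA and spironolactone both tagged libraries lay below every untagged one. In finerenone 2 of 3 tagged libraries did so, and RK2.2.Old.MO (26.3%) lay above the untagged library RK3.1 (25.7%). As the sets were not designed as groups, these values are given without a test. Which libraries were collected at 3 weeks is not given in the sources used here, and a link of the sets to collection time or batch was not tested. All 5 control samples were collected at 6 weeks, and in control IC_A made up 70.9% (untagged) and 54.5% (tagged) of intercalated nuclei. By numbering, the samples form an earlier and a later block. These have as many samples per treatment as the untagged and tagged sets have libraries. The 3 samples taken at 3 weeks are in the later block. Finerenone and amiloride had a larger part of their libraries in the tagged set. When labels were permuted only within the sets, the exact p for the finerenone difference was 0.28. Among tagged libraries the finerenone mean was 45.4% and the DOCA mean 56.8%, and among untagged libraries they were 62.2% and 62.8%.

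**Figure D5:**
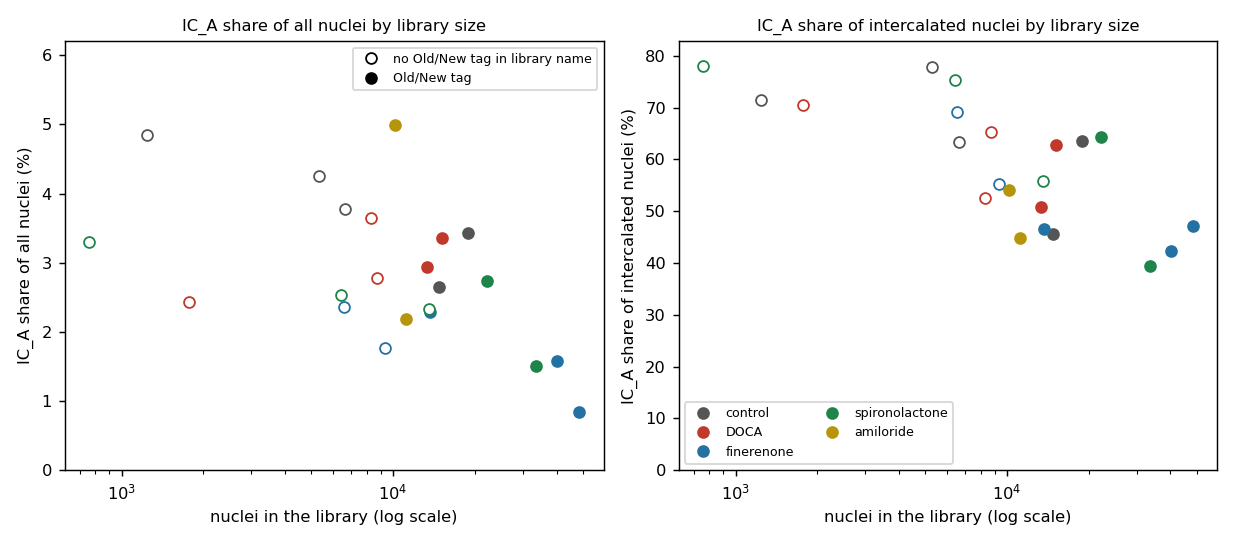
IC_A share of all nuclei (left) and of intercalated nuclei (right), in percent, against the number of nuclei in the library on a log axis. Points are the 22 libraries coloured by treatment, open for untagged and filled for tagged names; the 3 libraries of over 30000 nuclei have 0.839% to 1.57% IC_A.

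Averaged over the 4 groups with 5 libraries, IC_A varied less between libraries of a treatment than the other types, although not in each group. The within-treatment coefficient of variation, averaged over those groups, was 0.248 for IC_A, the lowest of the 16 types, followed by 0.276 for PCT, and it was 0.324 for PC and 0.411 for IC_B. The observed SD of the share of all nuclei was 2.54 times the SD from counting alone in control, 2.16 times in DOCA, 5.02 times in finerenone and 2.08 times in spironolactone. It was 10.9 times in the 2 amiloride libraries, the highest of the 5 groups.

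Over the 22 libraries, the IC_A share of all nuclei was set against library size and against the shares of other types. Pearson's r with the log10 number of nuclei was -0.53 (permutation p = 0.0109, adjusted over 5 relations 0.0545) and Spearman's rho -0.491 (permutation p = 0.0215). Without the 2 libraries farthest from the median size r was -0.442, within treatments it was -0.492, and it was -0.418 in the untagged and -0.751 in the tagged set. The IC_A share went with the PC share at r = 0.47 (permutation p = 0.0271, adjusted 0.0678) and rho = 0.486 (permutation p = 0.0233), at r = 0.357 without the 2 libraries farthest from the median PC share, and at 0.845 in the untagged and 0.318 in the tagged set. Within treatments r was 0.026, and with proximal tubule nuclei left out of the total it was 0.145. The relation was r = 0.347 for IC_B (permutation p = 0.115), 0.113 for DCT (permutation p = 0.618) and 0.0644 for the loop of Henle (LOH, permutation p = 0.776), where it was 0.633 in the untagged and -0.175 in the tagged set. None of the 5 relations passed the threshold of 0.05 after adjustment. These shares have the same total, which by itself ties them together.

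Within the island, IC_A nuclei of the treatments lay largely intermixed. Of the 30 nearest island neighbours, 22.7% came from a library of the same treatment, against 21.1% for even mixing, a ratio of 1.07. The ratio was 1.02 for control, 1.09 for DOCA, 1.11 for finerenone, 1.00 for spironolactone and 1.46 for amiloride. For the same library it was 1.37 (8.23% against 6.02%), with the highest values in RK7.1 (2.19) and in the amiloride library RK12.2.New.MO (2.13). The excess over even mixing was thus larger for the library than for the treatment. The authors corrected the data for batch effects with Harmony before drawing the map, and each library belongs to a single treatment. Such correction can reduce differences between libraries, so this mixing cannot show whether the treatments left IC_A nuclei alike.

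The mean position of each library's IC_A nuclei on the first principal axis of their UMAP coordinates was -0.00978 ± 0.132 in DOCA and -0.0859 ± 0.0668 in control (SD, n = 5 each). The difference of 0.0761 (95% interval -0.0688 to 0.234, exact permutation p = 0.31) did not exceed the spread. On the second axis DOCA lay at -0.0681 ± 0.0429 and control at 0.0134 ± 0.0338, a difference of -0.0815 (95% interval -0.144 to -0.0207, exact permutation p = 0.0238), which was -0.033 (95% interval -0.0701 to 0.00582, exact permutation p = 0.0794) on the same axis when only island nuclei were counted. The axes describe places on the map after batch correction, which limits these differences in the same way, and were not tied to any gene.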

How the data were processed

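snRNA-Seq of 22 rat kidney samples was processed by the authors with Cell Ranger (versions 3.0.2 and 6.0.1 appear in the submitters' processing notes) and Seurat, on the rn6 genome, with ambient RNA and doublets removed and Harmony integration. The deposited tables give each nucleus's library, treatment and cell type, and its UMAP coordinates, a score without unit. Library names match no sample title, so libraries were grouped by the treatment column, samples taken at 3 and 6 weeks together, and the library was the replicate. Depth per nucleus was not analysed here. Shares of IC_A nuclei were compared by two-sided exact permutation tests of library means, with 95% intervals from inverting the test, at a threshold of 0.05 and Benjamini-Hochberg adjustment over 12 tests. Correlations used 100000 permutations. Islands were found with DBSCAN (radius 0.5, minimum 20 points, scikit-learn 1.9.0, scipy 1.17.1, Python 3.11.15). Tests were checked on simulated data. Alternatives were pooled, median and logit shares, other denominators, library sets and sizes, and single libraries left out; the island and the averaging of libraries of the same RK number were chosen after seeing the data. The members and comparisons were chosen with earlier results of these data known. No gene was selected or tested, since no expression table was used here.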

Additional observations from a re-analysis of the deposited data

How the results depend on the processing

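No paired analysis was possible because the library names match no sample title and the sources used here do not say what a recurring RK number means. The lower IC_A share of all nuclei with finerenone kept its direction and its unadjusted call under every alternative run that allowed a test. It was -1.41 to -1.03 percentage points (exact permutation p = 0.0159 each) when single libraries were left out. As the groups did not overlap, leaving out libraries kept them apart, which fixed such p-values in advance at the smallest possible. They add no independent support. For the same share, leaving out single libraries gave -1.05 to -0.498 for DOCA against control, -0.752 to -0.305 for spironolactone and -0.847 to 1.96 for amiloride. DOCA against control became 0.104 in tagged libraries, -0.348 without libraries of under 2000 nuclei and -0.217 with pooled nuclei, and -0.774 with a call when libraries of the same RK number were averaged, and spironolactone reached a call at -0.903 without libraries of under 2000 nuclei. For the share of collecting duct nuclei the ranges with single libraries left out were -2.57 to 1.35 (DOCA against control), -4.87 to -0.955 (finerenone), -0.355 to 6.87 (spironolactone) and -12.1 to 9.31 (amiloride). DOCA against control turned to 0.106 without libraries of under 2000 nuclei, and amiloride to 0.387 with medians, 1.17 with pooled nuclei and 4.26 in tagged libraries. Without Multiome libraries, which left 1 amiloride library, the amiloride difference kept its sign at -13.7. Spironolactone turned to -2.87 with pooled nuclei and -2.26 in tagged libraries, finerenone to 1.18 in tagged and DOCA against control to 1.00 in untagged libraries. For the share of intercalated nuclei the ranges were -8.65 to -0.56 (DOCA against control), -12.6 to -5.80 (finerenone), -1.67 to 7.99 (spironolactone) and -15.7 to -6.31 (amiloride). Spironolactone turned to -4.33 with pooled nuclei and -4.90 in tagged libraries, and DOCA against control to 2.32 in tagged libraries. The UMAP position difference was 0.0253 to 0.112 with single libraries left out, 0.0305 for island nuclei on the same axis and -0.00108 for them on a refitted axis. The second axis is a separate coordinate, with a difference of -0.0815. The PC correlation fell to 0.026 within treatments, -0.0169 within treatment and set, and 0.145 without proximal tubule nuclei in the total. That with IC_B was 0.0316 without the 2 farthest libraries, 0.116 within treatments and 0.392 within treatment and set. For IC_B it was 0.384 in the untagged and 0.662 in the tagged set. The correlation with LOH was -0.405 without proximal tubule nuclei, and that with library size -0.34 within treatment and set. Where an alternative left out libraries, fewer libraries were tested, and otherwise the cause was not tested. With 5 libraries against 5, no p can go below 0.00794.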

Other observations

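The IC_A island had projecting ends, outlined after the map was seen and described here without a test. Of the 6966 island nuclei, the 3% farthest to the right on UMAP 1 fell into an upper arm of 84 nuclei and a lower arm of 125, divided at the island's median on UMAP 2. In the upper arm 83 of 84 nuclei (98.8%) came from untagged libraries, which supplied 1918 of the island's nuclei against 5048 from tagged ones. These nuclei were concentrated in 5 libraries, with 8.42% of the island nuclei of RK8.2 and 7.98% of RK7.2 (both DOCA), 7.96% of RK12.3 (control), and 7.28% of RK2.1 and 3.82% of RK3.1 (both finerenone). In the 3 untagged spironolactone libraries 0, 0 and 1 nucleus lay there. Untagged libraries of other groups also had few, with 0 of 60 in RK12.2 and 3 of 248 in RK11.3 (both control) and 0 of 43 in RK7.1 (DOCA). In the lower arm 97 of 125 nuclei (77.6%) came from the 5 Multiome libraries, which supplied 2251 of the island's nuclei, but unevenly, with 42 from RK12.2.New.MO, 23 from RK12.2.Old.MO and 21 from RK5.1.Old.MO. The Multiome libraries RK2.2.Old.MO (0.678%) and RK9.1.Old.MO (1.85%) had a lower share of their island nuclei there than RK8.2 (2.69%), which is not a Multiome library. Among the 3% farthest to the left, 148 of 209 nuclei (70.8%) were from Multiome libraries, 63 of them from RK12.2.New.MO. The Multiome libraries RK9.1.Old.MO (1.65%) and RK5.1.Old.MO (3.25%) had a lower share there than RK7.1 (6.98%) and RK4.2 (5.6%), which are not Multiome libraries. The amiloride library RK12.2.New.MO had the highest share of its island nuclei in both of these ends, 8.38% in the lower arm and 12.6% on the left, and the control library RK12.2.Old.MO the next, 5.97% and 9.09%.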
